A study of Caenorhabditis elegans with 2 samples.

Results

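Dense chains are runs of ZTF-11 peaks that lie close together along a chromosome. They were chosen by position: the summits of the pooled peak list were sorted, neighbours no more than 2000 bp apart were joined, and every chain with 3 or more summits was kept. Of the 11998 peaks on nuclear chromosomes, 2604 fell in 683 dense chains. A further 2976 peaks made 1488 chains of 2, and 6418 peaks stood alone, with no other summit within 2000 bp. The whole pooled list held 12024 peaks, and its 26 mitochondrial peaks were not chained.

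The peaks come from chromatin immunoprecipitation and sequencing (ChIP-seq) of eGFP-tagged ZTF-11 in whole Caenorhabditis elegans embryos of mixed stages, with males and females pooled. The labels number the libraries as biological replicates 1 and 2, both of strain OP236, which carries the integrated transgene wgIs236 and the mutation unc-119(ed3). They form 1 group with no second condition. The labels name a possible control library, which was not analysed here, and do not give the copy number of the transgene. With 2 libraries in 1 group, no test between samples was possible, so all values below are descriptions. The read depth behind the peaks is unknown, since the lists hold no counts.

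ZTF-11 belongs to the Myt1 family, zinc finger proteins that bind DNA, promote neurogenesis and are known for repressing genes of other cell fates. A peak marks a place where immunoprecipitated fragments piled up over the control, and its summit is the point of highest pile-up. The pooled list is labelled as peaks and background, so an entry in it is not by itself a binding site. The authors' thresholded list, described below, kept 698 of its 11998 nuclear peaks (5.82%). Signal is the height value that the authors' peak caller gave each peak. Its scale is not stated, so it is used here to describe and rank peaks within a list, and each peak has 1 value with no error of its own. Peaks of the replicate lists that overlapped a pooled peak had a median signal of 10.6 in replicate 1 and 7.92 in replicate 2, so the lists may differ in scale, and ranks are given where libraries are compared. In the compact worm genome most introns are short, and the long ones often hold regulatory DNA or genes for non-coding RNAs.

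Sequences around 6 summits are shown, 5 as examples of the 2 motifs counted in summit windows and 1 from a tall peak without either. They are not typical: of the 36 windows at the 2 highest peaks of 18 leading dense chains, 8 held either motif and 28 held neither. Each window is a summit of the ce11 plus strand with 50 bp on each side, with capitals for every GAGAGA and CTGCGTC match on either strand (TCTCTC and GACGCAG on the strand shown). The windows were chosen after their values were seen. The din-1 window (chrII:11635897-11635997) lies under the peak with the second highest signal of its chain, 80.0. The hmg-1.1 window (chrII:14251566-14251666) lies under a peak of 54.3 and is named after its chain. The protein-coding 5′ end nearest to that summit is of Y54G11A.2, 741 bp away. The Y111B2A.12 window (chrIII:12612640-12612740) and the zfp-1 window (chrIII:8802055-8802155) lie under the strongest peaks of 2 chains inside genes, with signals of 123 and 89.7. The mir-52 window (chrIV:14033048-14033148) lies under the peak next to the strongest in its chain, with a signal of 71.9. The T24B8.3 window (chrII:9060497-9060597), under a peak of 124, holds neither motif.
din-1 window: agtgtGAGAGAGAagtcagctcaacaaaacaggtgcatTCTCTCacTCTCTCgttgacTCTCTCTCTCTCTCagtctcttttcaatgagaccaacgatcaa
hmg-1.1 window: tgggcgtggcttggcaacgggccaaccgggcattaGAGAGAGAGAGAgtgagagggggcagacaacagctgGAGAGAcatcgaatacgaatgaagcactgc
Y111B2A.12 window: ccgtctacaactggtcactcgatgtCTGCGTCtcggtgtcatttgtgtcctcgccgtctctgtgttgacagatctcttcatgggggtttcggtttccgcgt
zfp-1 window: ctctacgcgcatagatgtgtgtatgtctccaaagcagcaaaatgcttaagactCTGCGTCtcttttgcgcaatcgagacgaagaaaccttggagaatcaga
mir-52 window: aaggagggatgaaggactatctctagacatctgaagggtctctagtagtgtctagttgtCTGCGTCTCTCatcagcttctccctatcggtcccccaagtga
T24B8.3 window: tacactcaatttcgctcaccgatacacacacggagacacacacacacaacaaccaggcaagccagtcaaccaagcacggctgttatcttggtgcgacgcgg
The din-1 window holds 9 overlapping matches to GAGAGA in several runs, and the hmg-1.1 window holds 5. The Y111B2A.12, zfp-1 and mir-52 windows each hold 1 CTGCGTC, which overlaps a TCTCTC match in the mir-52 window.

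Mature microRNAs (miRNAs) of 2 families are shown because every annotated gene of both lies in a dense chain. Each line gives the arm that carries the shared seed, from the RefSeq annotation of the WBcel235 assembly, with the seed (bases 2 to 8) in capitals. The mir-35 family, which is abundant in oocytes and early embryos and is needed for embryonic survival, has 8 genes with the seed CACCGGG.
mir-35, 3p arm: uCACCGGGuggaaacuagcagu
mir-36, 3p arm: uCACCGGGugaaaauucgcaug
mir-37, 3p arm: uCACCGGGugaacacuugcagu
mir-38, 3p arm: uCACCGGGagaaaaacuggagu
mir-39, 3p arm: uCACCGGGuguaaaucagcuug
mir-40, 3p arm: uCACCGGGuguacaucagcuaa
mir-41, 3p arm: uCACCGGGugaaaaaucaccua
mir-42, 3p arm: uCACCGGGuuaacaucuacaga
The mir-51 family, which is also needed for embryonic development, has 6 genes with the seed ACCCGUA.
mir-51, 5p arm: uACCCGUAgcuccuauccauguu
mir-52, 5p arm: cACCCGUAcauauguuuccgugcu
mir-53, 5p arm: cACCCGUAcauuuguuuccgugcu
mir-54, 3p arm: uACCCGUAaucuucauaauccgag
mir-55, 3p arm: uACCCGUAuaaguuucugcugag
mir-56, 3p arm: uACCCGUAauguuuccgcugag

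Dense chains held 21.7% of the nuclear peaks and 24.6% of their summed signal on 1.96% of the nuclear bases, measured from first to last summit. Most were short runs: 405 chains (59.3%) had 3 summits, 145 had 4, 71 had 5 and 62 had 6 or more, up to 16. Their length from first to last summit ran from 431 to 14872 bp with a median of 2533 bp. The summed signal of a chain ran from 38.2 to 371 with a median of 65.4, against 32.4 for chains of 2, and 51 lone peaks had more signal by themselves than the median dense chain. Neighbouring summits were a median of 987 bp apart, and 262 of 1921 gaps were under 356 bp, the usual peak width, so that the deposited peaks overlapped. At the limit of the rule, 157 gaps over all chains, 88 of them in dense chains, were in the last 100 bp up to 2000 bp, and 131 gaps in the first 100 bp beyond it separated chains.

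**Figure D1:**
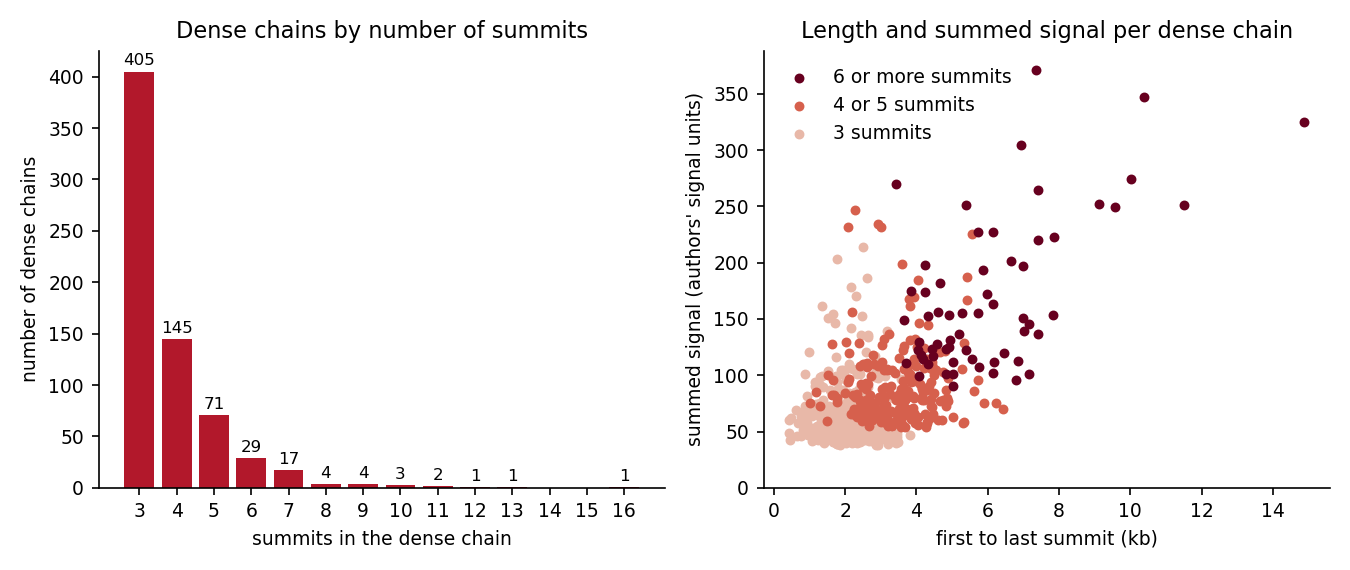
Left, the number of dense chains (y axis) by their number of summits (x axis). Right, each point is 1 dense chain, with its length from first to last summit in kb (x axis) and the sum of the authors' signal over its peaks (y axis), coloured by number of summits. The 405 chains of 3 make up the lower left, and the longest chain (14872 bp) is not the one with the highest sum.

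Single peaks of dense chains were slightly higher than lone peaks. Their median signal was 16.8 in dense chains, 15.4 in chains of 2 and 14.96 in lone peaks, and the upper ends were also apart, with a 95th percentile of 45.6 in dense chains and 31.4 in lone peaks. The highest single signal was nevertheless lower in dense chains, 184 against 256 in lone peaks. The authors also deposited a list thresholded for reproducibility between the replicates. It kept 261 of the 2604 dense-chain peaks (10.02%), 179 peaks of chains of 2 (6.01%) and 258 lone peaks (4.02%), where 5.82% of all nuclear peaks were kept. Signal and this list come from the same pooled reads as the positions that chose the chains, so these shares are a description and not independent of the choice. Thresholded peaks were unevenly spread, with none in 484 chains, 1 in 155 and 2 or more in 44. The lowest nuclear signal in that list was 33.9. In the leading chains described below, every peak of at least that signal was in the list and none below it was. There the list restates pooled signal, and it does not show for each peak that both replicates were high. Peaks of the list made up 14.98% of the peaks in chains of 6 or more summits, 9.52% in chains of 4 or 5 and 8.56% in chains of 3.

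Peaks of dense chains lay in introns more often, and in longer introns, than lone peaks. Introns held 37.5% of dense-chain summits, 32.4% of summits in chains of 2 and 31.0% of lone summits. The intron around an intronic summit had a median length of 1706 bp in dense chains, 1049.5 bp in chains of 2 and 877.5 bp in lone peaks. Coding exons held 15.1%, 15.2% and 18.4% of the summits in the same order, and intergenic DNA 37.1%, 41.8% and 40.1%. A promoter window, from 1000 bp upstream to 200 bp downstream of a protein-coding 5′ end, covered 33.9% of dense-chain summits, 40.1% of those in chains of 2 and 35.8% of lone summits. The small difference in promoter windows between dense chains and lone peaks changed sign with the strongest peaks of replicate 2 alone (35.7% against 35.2%). The intron share was higher in larger chains. Introns held 44.3% of the summits in chains of 6 or more, 40.2% in chains of 4 or 5 and 32.9% in chains of 3.

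The contrast was wider among thresholded peaks. Of these, 34.9% were intronic in dense chains, 24.0% in chains of 2 and 18.99% among lone peaks, with median intron lengths of 2622, 1299 and 586 bp. Promoter windows covered 45.6% of the thresholded summits in dense chains, 62.6% in chains of 2 and 62.8% of lone ones. Thresholded peaks were of similar height, with a median signal of 45.7 in dense chains and 44.4 in lone peaks. A long intron or intergenic stretch has room for more summits, so length and chaining are not independent measures. The intergenic stretches around summits had a median length of 4866.5 bp for dense chains and 3861 bp for lone peaks.

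**Figure D2:**
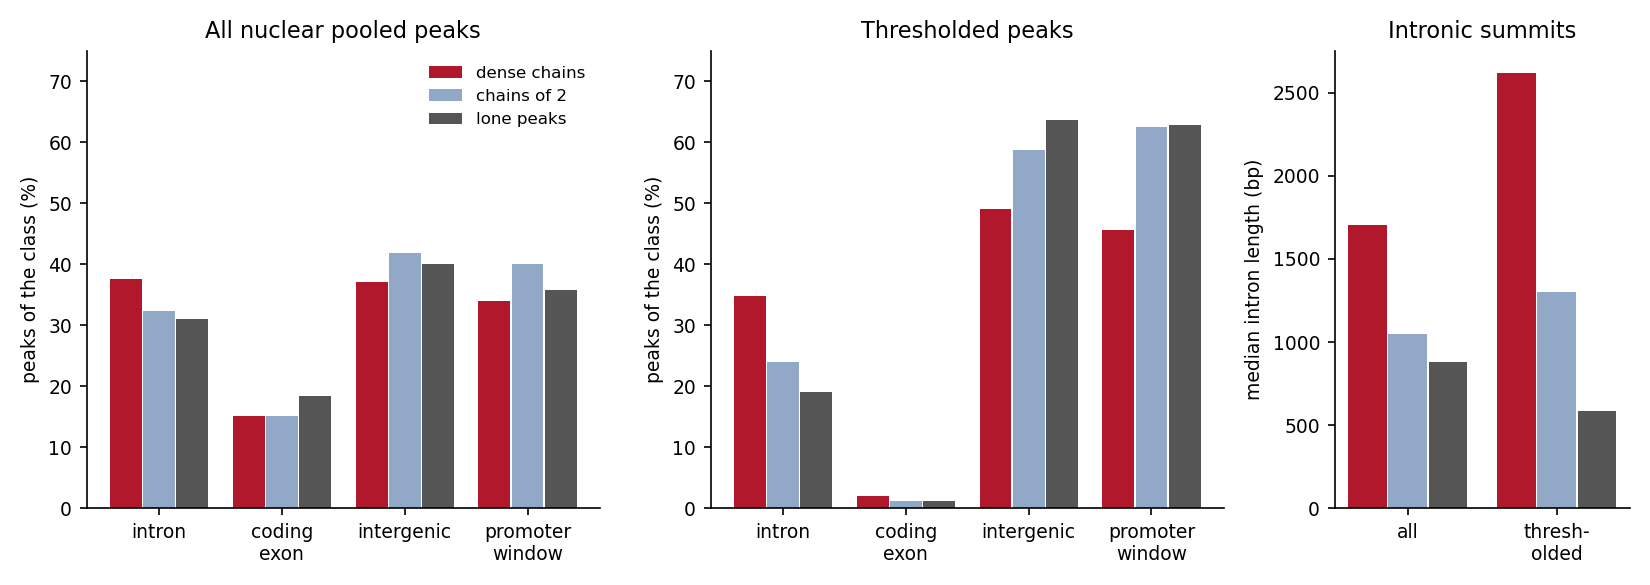
Share of peaks (y axis, %) with the summit in an intron, a coding exon, intergenic DNA or a promoter window, for all nuclear pooled peaks (left) and thresholded peaks (middle), and the median length in bp of the introns that hold intronic summits (right), with 1 bar for dense chains, chains of 2 and lone peaks. Promoter windows overlap the other classes. Dense chains have the highest intron share and the longest introns in both peak sets.

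Chains were sorted by the genes they span. Of the 683, 361 (52.9%) crossed a border of a protein-coding gene, 188 (27.5%) lay inside 1 gene and 134 (19.6%) lay wholly between genes. The 174 genes that held a whole chain had a median length of 11792 bp, against 2032 bp for all protein-coding genes. Such a gene must be at least as long as its chain, and chains inside 1 gene had a median length of 2515 bp. The difference in gene length is therefore partly set by the definition. Among chains of 6 or more summits 16 lay inside 1 gene, 44 crossed a border and 2 lay between genes. No protein-coding 5′ end lay inside 271 chains, 1 lay inside 272 and 2 to 5 lay inside 140. By chromosome, chains numbered 8.36 per Mb on I, 7.33 on II, 8.71 on III, 5.77 on IV, 4.64 on V and 7.17 on X. The share of a chromosome's peaks that was in dense chains ran from 18.3% on V to 23.3% on II.

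The 10 longest chains spanned 7409 to 14872 bp, and 1 of them lay wholly between genes. The chain with the most summits covered 16 of them over 14872 bp (chrII:4572888-4588115) inside vab-1, which encodes an Eph receptor that guides embryonic cell movements. All but 1 of these summits were intronic, in 5 introns of 890 to 3919 bp, and no 5′ end of vab-1 lay in the chain. Their signals ran from 13.4 to 51.9 with a median of 18.3, and 2 were thresholded. The strongest, 12501 bp from the first summit, overlapped a peak of 23.3 in replicate 1 and of 32.7 in replicate 2. All 16 pooled peaks overlapped a peak in replicate 1, and 15 of them did in replicate 2.

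A single intron of 11385 bp in lsy-22, which encodes a Groucho-related co-repressor that acts in a neuronal fate decision, held all 13 summits of the chain with the second highest number of them (chrI:7707044-7717787). The signals ran from 12.5 to 72.2, and their sum was 347. The 3 thresholded peaks stood 1964, 4540 and 8483 bp from the first summit, with signals of 43.7, 35.4 and 72.2. In replicate 1 the peaks over them had signals of 18.1, 9.2 and 42.2, and in replicate 2 of 24.0, 28.7 and 29.2. The middle one ranked 10265 in replicate 1 and 212 in replicate 2, while the tallest ranked 103 and 199.

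Long introns also held summits of the chains at tlk-1, mnk-1 and cdc-25.2. At tlk-1, the Tousled-like kinase gene of chromatin assembly, 12 summits spread over 11508 bp with signals of 12.4 to 34.1, 10 of them in the gene and 5 of these in 1 intron of 4735 bp. At mnk-1, a gene for a MAP kinase interacting kinase, 11 summits spread over 10031 bp, 10 of them in the gene. The first was intergenic, 166 bp from the 5′ end of the neighbouring pro-1, and the strongest (58.8) lay 557 bp from a 5′ end of the gene in a 4572 bp intron. In cdc-25.2, a cell cycle phosphatase gene, all 9 summits were intronic, 6 of them in an intron of 10579 bp. These chains had few tall peaks: 1 of 12 was thresholded in the tlk-1 chain, 2 of 11 in the mnk-1 chain (the strongest and, at 36.7, the one by pro-1) and 2 of 9 in the cdc-25.2 chain.

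The chain with the highest summed signal (371) began inside din-1 and ran out past its 5′ end (chrII:11629954-11637660). The product of din-1 is a co-repressor that binds the nuclear hormone receptor DAF-12. Of its 10 peaks 4 were thresholded, at 37.7, 82.3, 50.6 and 80.0. The peaks over the tallest 2 had signals of 36.3 and 46.4 in replicate 1 and of 46.99 and 33.99 in replicate 2, so both libraries were high there. The GA-rich window shown for din-1 belongs to the peak of 80.0, which lies in intergenic DNA outside promoter windows. A peak 200 bp away from it (27.5) overlapped the same peak of each replicate, so a replicate peak can stand behind more than 1 pooled peak.

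The most thresholded peaks in any chain, 5 of 9, lay around cki-1 and cki-2 (chrII:7809428-7816723). These neighbours encode cyclin-dependent kinase inhibitors of the CIP/KIP family, which hold cells out of the cycle. The 5 had signals of 53.9, 34.9, 51.3, 34.8 and 44.6, all in intergenic DNA, and 2 of them in a promoter window. In replicate 1 the peaks over them had signals of 14.7, 16.8, 27.3, 17.9 and 25.5. In replicate 2 they had signals of 36.1, 13.4, 26.1, 21.1 and 19.2. The first ranked 1930 in replicate 1 and 100 in replicate 2.

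**Figure D3:**
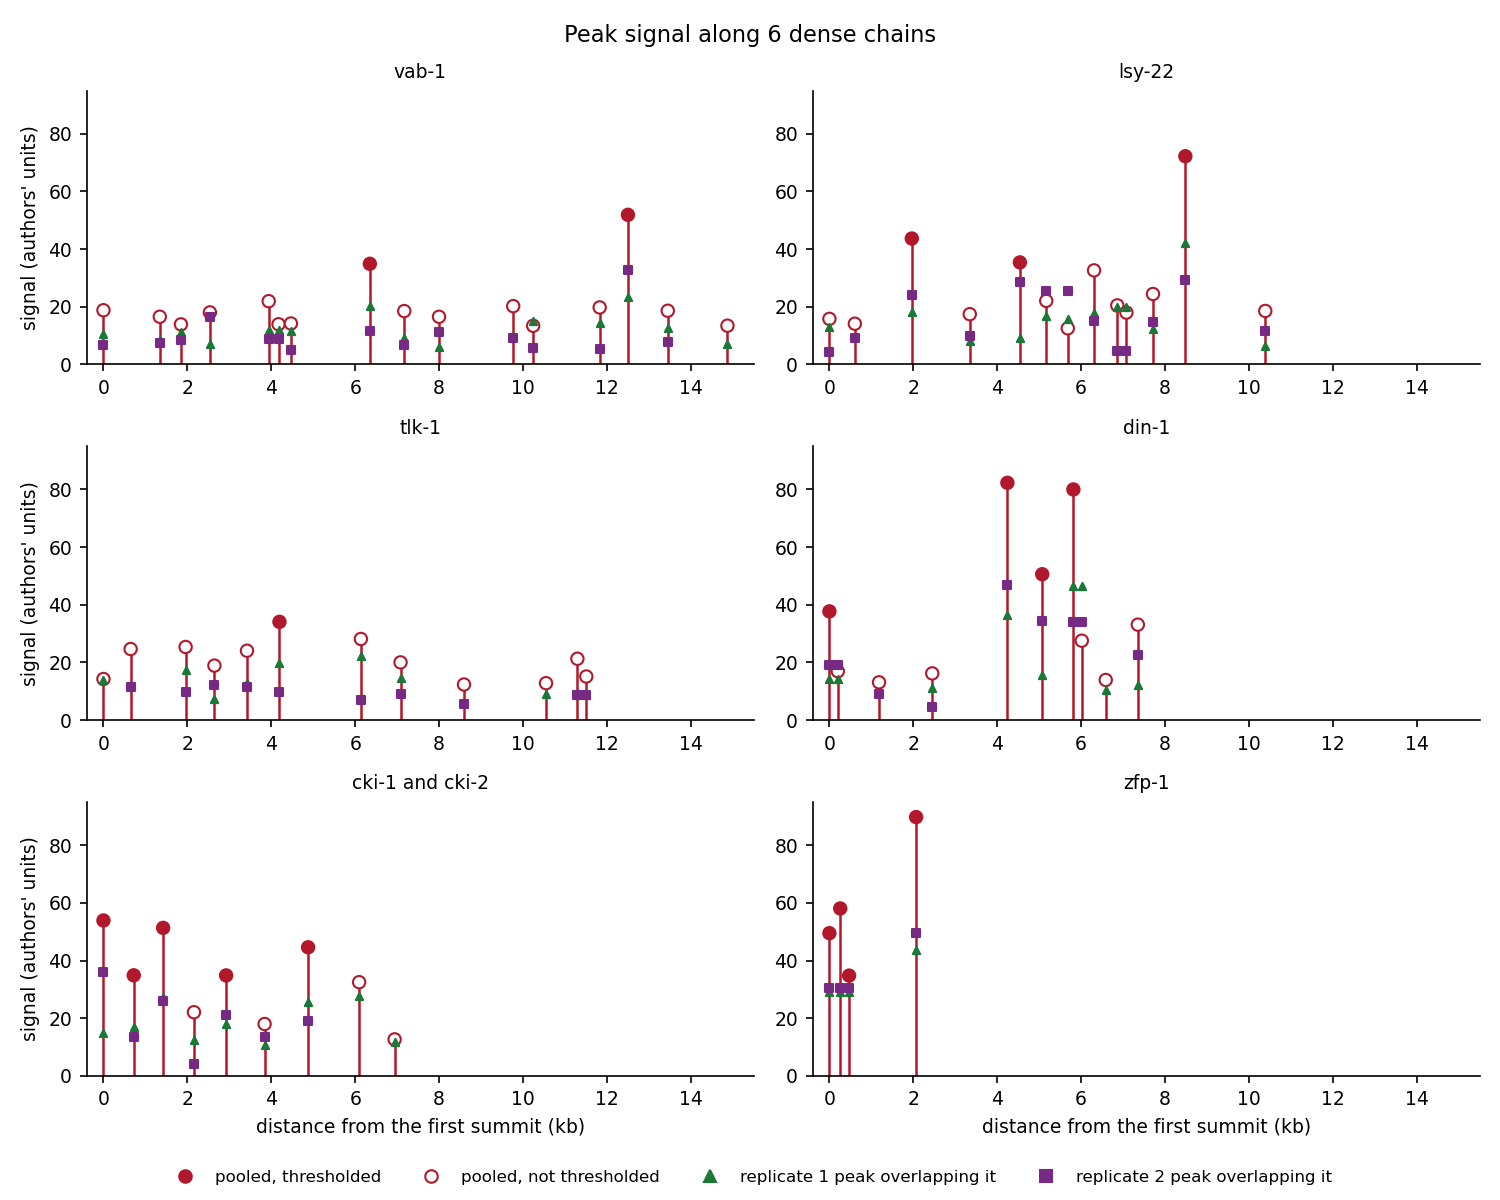
Signal of each pooled peak (y axis, authors' units) against its distance in kb from the first summit of its chain (x axis) in 6 dense chains. Circles on stems are pooled peaks, filled where thresholded, and triangles and squares give the overlapping peak of replicate 1 and replicate 2, where there was one. The vab-1, lsy-22 and tlk-1 chains are long rows of low peaks with 1 to 3 tall ones, and all 4 peaks of zfp-1 are thresholded.

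Some leading chains with tall peaks lay at or near genes of chromatin proteins, a class that was not counted against all genes. In zfp-1, which encodes a homologue of the chromatin protein AF10, all 4 peaks over 2067 bp were thresholded, at 49.5, 58.1, 34.8 and 89.7. The first 3 overlapped 1 peak of each replicate (29.2 in replicate 1, 30.5 in replicate 2), and the last overlapped peaks of 43.6 and 49.4. The third summit also lay in F54F2.6, which overlaps zfp-1, so it cannot be given to 1 gene. At hmg-1.1, an HMG-box gene, 4 of 7 peaks over 3437 bp were thresholded, at 60.02, 47.1, 43.6 and 54.3. All 4 were intergenic, and the last of them lay nearest to the 5′ end of Y54G11A.2, 741 bp away. Along hil-3, a gene for an H1-like linker histone, 4 of 5 peaks were thresholded, at 37.3, 92.8, 42.99 and 37.5, in a stretch with 6 tRNA genes. The tallest was intergenic, 1875 bp from the 5′ end of hil-3. At his-24, which encodes linker histone H1, 11 summits spread over 6135 bp, with the tallest (55.6) in the 5′ UTR and 25 bp from the 5′ end.

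Other leading chains were dominated by 1 peak. In the intron of 7076 bp that holds the Y111B2A.12 chain, the second of 6 peaks made up 49.2% of the summed signal of 251. It had a signal of 68.8 in replicate 1 and of 54.6 in replicate 2, ranks 15 and 27 of their lists. At T24B8.3 and T24B8.4 the first of 9 peaks, 124, made up 46.7% of the sum of 264, and its replicate signals were 62.8 and 62.5. Over all dense chains the strongest peak held a median of 38.3% of the sum. At egl-30, a Gq alpha subunit gene, the first 3 of 5 peaks (76.3, 65.6 and 44.9) were thresholded. The first had a signal of 17.1 in replicate 1 and of 61.2 in replicate 2, ranks 1138 and 19.

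The remaining chains chosen by rank were spread over intergenic and genic DNA. At tcl-2, which acts in an asymmetric cell division, 3 of 9 peaks were thresholded (50.2, 48.5 and 38.8). A run of 10 summits (249 in sum) lay wholly between genes, and had 2 thresholded peaks of 39.0 and 45.97. The peak of 45.97 was nearest to unc-44, an ankyrin gene of axon growth. The peak of 39.0 lay on a tRNA gene and nearest to the 5′ end of K02B2.6. Of the 32 bp words in its summit window, 67.1% occur elsewhere in the genome. The chain over adt-1, an ADAMTS protease gene, and ugt-50, a UDP-glucuronosyltransferase gene, had 10 summits, held mir-62, and had thresholded peaks of 39.7 and 39.6. At rga-9, a RhoGAP gene, none of 8 peaks was thresholded, and the tallest was 32.4.

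Genes of miRNAs were often inside dense chains. From edge to edge the chains covered 2.197% of the nuclear bases and overlapped 31 of 261 annotated miRNA genes (11.9%), in 15 chains. The same count was 63 of 612 tRNA genes (10.3%), 34 of 346 small nucleolar RNA genes (9.83%), 10 of 194 lincRNA genes (5.15%), 172 of 15363 piRNA genes (1.12%) and 7 of 2128 pseudogenes (0.329%). Members of 1 cluster share a chain, so genes are not separate events. Grouped by seed, the chains overlapped all 8 mir-35 family genes, all 6 mir-51 family genes and 4 of the 5 genes with the seed AUGACAC (mir-229, mir-64, mir-65 and mir-66, but not mir-63). Over all peaks a miRNA gene lay within 250 bp of 16 summits in dense chains (0.614%), 9 in chains of 2 (0.302%) and 14 lone ones (0.218%).

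The mir-35 family was covered by 2 chains. The cluster of mir-35 to mir-41 lay within 7 summits (chrII:11534639-11538847) with signals of 26.4, 17.5, 37.8, 20.9, 28.7, 23.8 and 19.5, of which only the third was thresholded. It stood before the first miRNA gene, while the summits of 28.7 and 23.8 lay at mir-35 and mir-37. The peak over the third had signals of 17.1 in replicate 1 and 25 in replicate 2. The separate mir-42, mir-43 and mir-44 cluster lay within 4 summits (chrII:11887805-11891342) with signals of 16.99, 33.9, 35.5 and 18.1. The middle 2 were thresholded, with 16.98 and 20.2 in replicate 1 and 11.8 and 14.9 in replicate 2. Peaks at this family were thus moderate.

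The mir-51 family had taller peaks, in 3 chains on 2 chromosomes. At mir-51 and mir-53 (chrIV:11026016-11028025) the peak over mir-51 had a pooled signal of 102, with 65.2 in replicate 1 and 37.5 in replicate 2, and the peaks of 24.7 and 26.9 beside it were not thresholded. At mir-52 (chrIV:14031712-14034339) the signals were 12.4, 71.9, 126 and 37.2, and the last 3 were thresholded. The tallest had 70.04 in replicate 1 and 62.3 in replicate 2, ranks 13 and 15 of the lists. At mir-54, mir-55 and mir-56, inside an intron of F09A5.3 (chrX:13143351-13146636), the signals were 28.6, 42.6, 82.9, 61.2 and 18.8. The tallest had 50.2 in replicate 1 and 31.7 in replicate 2, and it ranked 54 and 159.

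**Figure D4:**
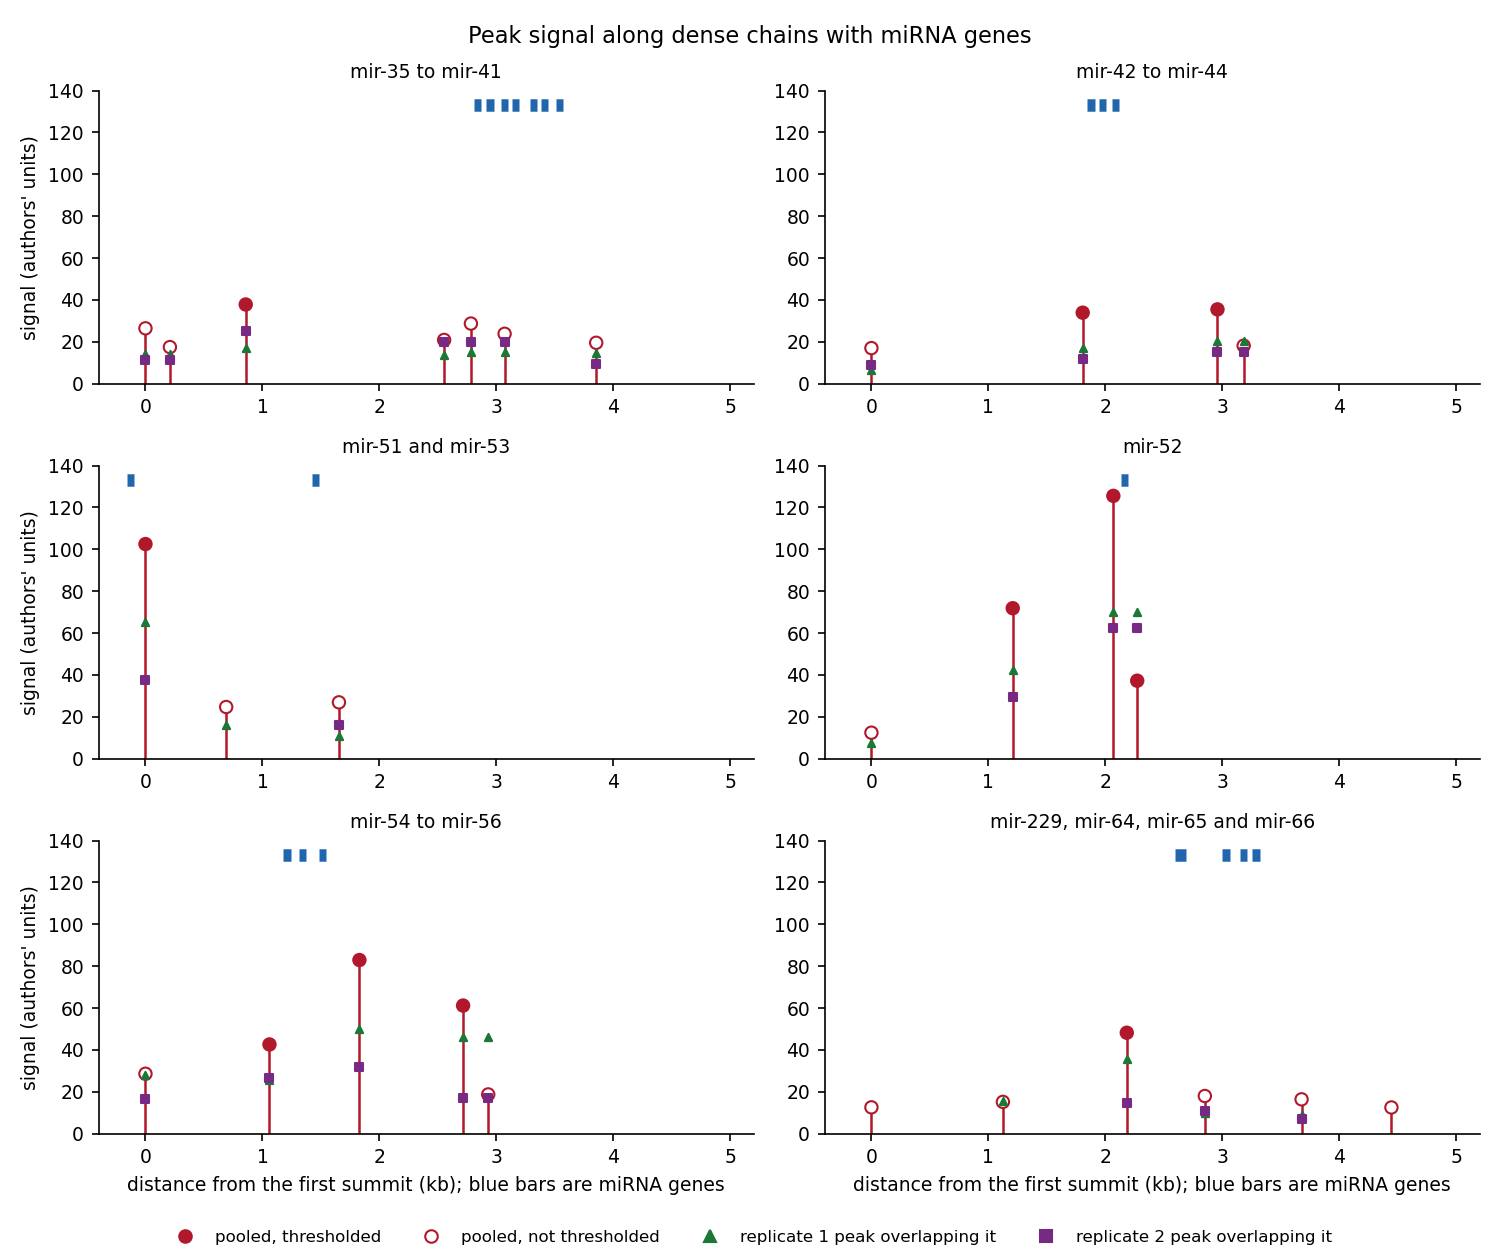
Signal of each pooled peak (y axis, authors' units) against its distance in kb from the first summit (x axis) in the 5 dense chains that hold the mir-35 and mir-51 families and in the chain of mir-229, mir-64, mir-65 and mir-66. Symbols are pooled peaks (circles, filled where thresholded) and the overlapping peaks of replicates 1 and 2, and blue bars mark the miRNA genes. The tallest peaks of the mir-51 family chains, 82.9 to 126, are above those of the mir-35 family chains, 35.5 and 37.8.

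In each replicate alone most of these genes were again in dense chains. The 11998 strongest nuclear peaks of replicate 1 put 14 of the 14 family genes and 26 miRNA genes in all into dense chains. Those of replicate 2 put 13 of the 14 (all but mir-52) and 34 miRNA genes. Both replicate lists share their reads with the pooled list and are not independent of it. With a smallest chain of 4 summits, mir-51 and mir-53 dropped out, and with a largest gap of 1000 bp mir-42 did.

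Protein-coding genes were counted by a 5′ end inside a dense chain, from edge to edge, which 591 of 19973 genes had (2.96%). The gene lists were drawn up with earlier results of these data known, so their counts are descriptions. Histone genes were in chains most among the larger lists, with 15 of 81 (18.5%) in 9 chains whose median summed signal was 142, against 69.2 over the 412 chains with a protein-coding 5′ end. Beside his-24 and hil-3 these were hil-7 (6 summits, 198 in sum), the group of his-59, his-60 and his-62 (3 summits, 203 in sum), and 9 others. Core histone genes exist in near-identical copies, and how the authors placed reads with more than 1 match is not given in the sources used here. Ribosomal protein genes had 10 of 81 (12.3%), in chains with a median sum of 77.9, led by rpl-20 (145), rpl-41.1 (106) and rpl-11.2 (101.3). Of these 10 chains 9 also held the 5′ end of another gene.

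Cell cycle genes had 5 of 31 (16.1%), namely cki-1, cki-2, cdc-25.2, the spindle checkpoint gene mdf-1 (121 in sum, a chain shared with 3 histone genes) and the CDC20 homologue fzy-1 (43.6). Wnt pathway genes had 4 of 27 (14.8%): mom-4, a MAP kinase kinase kinase gene (185 in sum), lit-1, the Nemo-like kinase gene it acts through (155), the APC-related apr-1 (114.7) and the Frizzled receptor gene lin-17 (88.9). The mom-4 chain is the one that runs into ztf-11, described below, and its 2 thresholded peaks lay nearest to a 5′ end of lsl-1. The part of the transgene's ztf-11 sequence in its sum was not tested. Genes of dosage compensation and sex determination had 4 of 19 (21.1%), the X-signal genes sex-1 (74.4) and fox-1 (65.4), the condensin gene dpy-27 (58.9) and fem-3 (44.6). The chain sums of this list had a median of 62.1, under that of all chains with a 5′ end.

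Lists of neuronal genes had 1 to 3 members each in dense chains, beside the 2.96% of all genes. Of the 16 neurogenesis factors 1 was (6.25%), the NeuroD homologue cnd-1, with a sum of 51.4. Among terminal selectors, which maintain the identity of neuron types, it was 3 of 25 (12%): egl-46 (125), ceh-10 (48.7) and unc-42 (47.7). Of the pan-neuronal and synaptic genes 1 of 29 was (3.45%), unc-33 (151), and of the neuropeptide genes 1 of 140 (0.714%), flp-11 (42.9). None of the 8 DREAM and MuvB, 24 Notch pathway, 23 germline, 32 aminoacyl-tRNA synthetase or 8 matched heterochronic genes had a 5′ end in a chain. The 5 largest lists were all under the share of all genes. Chemoreceptor genes had 2 of 1309 (0.153%, str-12 and str-263, in 1 chain) and C-type lectin genes 2 of 240 (0.833%, clec-126 and clec-266).

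Single members led most of the other lists, whose shares stand beside the 2.96% of all genes. The heat shock list had 2 of 22 (9.09%), the chaperone genes hsp-3 (188) and hsp-1 (116). The body wall muscle list had 3 of 31 (9.68%), lev-11 (tropomyosin, 146), act-4 (actin, 108) and unc-112 (kindlin, 105). Some lists of regulators had only 1 member in a chain. Among these members were the Hox cofactor unc-62 (137), the GATA factor elt-6 (139), the bHLH factor hlh-30 (102) and the pharyngeal factor peb-1 (75.4). Their lists had 10, 14, 25 and 15 matched genes, so the shares were 10%, 7.14%, 4% and 6.67%. The elt-6 chain starts inside egl-18, also a GATA factor gene, and holds a 5′ end of egl-18 too. Nuclear hormone receptors had 5 of 269 (1.86%), led by nhr-192 (111.5), nhr-48 (96.98) and nhr-49 (76.7). Translation factors had 3 of 39 (7.69%), led by eef-1A.2 (115.05), and splicing factors 3 of 42 (7.14%), led by snr-1 (72.7). The proteasome had 1 of 33 (3.03%), pas-6 (86.3), which is near the share of all genes. The collagen name pattern matched 194 genes, of which 4 (2.06%) were in chains, among them col-111 (100.3) and bli-6 (62.6), while dpy-27 and dpy-31 share only the name. F-box and BATH genes had 6 of 395 (1.52%), led by bath-36 (97.6) and fbxa-1 (74.2). Other homeobox genes had 1 of 63 (1.59%), ceh-10, and the ztf genes 1 of 25 (4%), ztf-6 (194).

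The ztf-11 gene itself was touched by a dense chain at its 3′ end. The chain had 5 summits with signals of 31.1, 27.7, 46.7, 57.9 and 21.6, and it ran from mom-4 through lsl-1 into ztf-11, whose own 5′ end it did not hold. The thresholded peaks of 46.7 and 57.9 had signals of 30.3 and 30.7 in replicate 1 and of 24.3 and 27.7 in replicate 2. The strain carries further copies of ztf-11 sequence in its transgene, and their part in these values was not tested. At unc-119, the mutated locus, the 5 peaks formed 2 chains of 2 and 1 lone peak and no dense chain.

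Replicates were compared by chaining each library's own list, cut to its 11998 strongest nuclear peaks. Replicate 1 gave 648 dense chains and replicate 2 gave 640. Of the 683 pooled chains, 313 (45.8%) were met by a dense chain of replicate 1, 273 (39.97%) by one of replicate 2, 148 (21.7%) by both and 245 (35.9%) by neither. Large chains recurred more: both replicates met 47 of 62 chains of 6 or more summits (75.8%), 69 of 216 of 4 or 5 (31.9%) and 32 of 405 of 3 (7.90%). Larger chains also cover more bases, which by itself makes an overlap easier. Summits lay inside a dense chain of replicate 1 in 35.3% of cases for dense chains and 2.103% for lone peaks, and in replicate 2 in 30.2% and 2.34%.

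**Figure D5:**
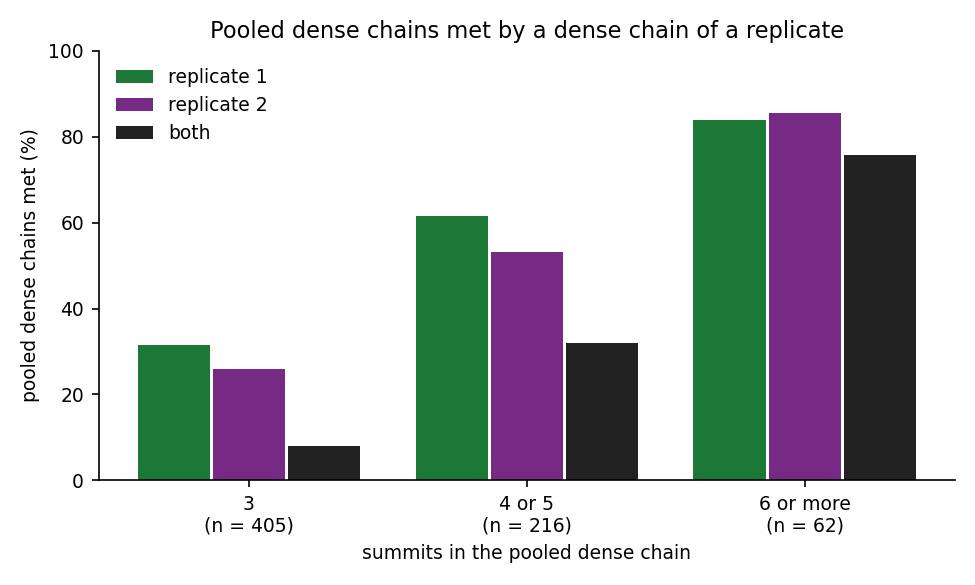
Share of pooled dense chains (y axis, %) that overlapped a dense chain of replicate 1, of replicate 2 or of both, by the number of summits in the pooled chain (x axis, with the number of chains). Chains of 6 or more summits were met by both replicates in 75.8% of cases, and chains of 3 in 7.90%.

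Counted by overlap, single peaks of dense chains were found again more often than lone peaks. A peak of replicate 1's list of 30000 overlapped 87.4% of dense-chain peaks and 83.4% of lone peaks, and a peak of replicate 2's list 80.3% and 69.2%. Both replicates overlapped 68.6% of dense-chain peaks, 61.4% of peaks in chains of 2 and 53.6% of lone peaks. The overlapping peaks ranked higher too, with median ranks of 4554 and 4281 for dense chains and 7365 and 8111 for lone peaks in replicates 1 and 2. Close peaks can share 1 replicate peak, which adds to these counts in dense chains. Counted by a replicate summit within 100 bp, the difference was absent in replicate 1, with 72.2% of dense-chain peaks and 72.9% of lone peaks. In replicate 2 these shares were 61.0% and 55.7%.

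Summit windows of dense chains were richer in GC and in GA repeats than those of lone peaks. The windows had a median GC content of 40.6% in dense chains, 39.6% in chains of 2 and 37.6% in lone peaks. GAGAGA (or TCTCTC) was in 14.1% of dense-chain windows, 12.3% of windows in chains of 2, 9.50% of lone windows and 8.86% of equally long windows just upstream of the 5′ ends of 19973 protein-coding genes. Among thresholded peaks the share was 28.7% in dense chains and 24.0% in lone ones. Over all thresholded peaks it was 28.9%, so the dense chains stood at about the overall share there. CTGCGTC (or GACGCAG) was in 3.26%, 3.53% and 2.60% of the windows, in the same order of classes, and in 1.45% of those upstream windows. Among thresholded peaks it was in 10.3% of dense-chain windows and 10.5% of lone ones. AAAGTT (or AACTTT), the core bound by Myt1 zinc fingers in vertebrates, was less frequent in dense chains. It was in 11.5% of dense-chain windows, 15.1% of lone windows and 18.9% of the same upstream windows. Among thresholded peaks it was in 3.45% of dense-chain windows and 5.43% of lone ones. GATA sites (TGATAA or TTATCA) were in 6.37% of dense-chain windows and 7.79% of lone ones. The longer core AAAGTTT was in 5.26% and 7.11%, the forkhead site TGTTTAC in 1.57% and 1.43%, and the E-box CACGTG in 1.80% and 2.07%. A match describes the letters only and shows no binding site.

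Windows in dense chains were also close to other non-coding RNA genes. A gene of the class that the annotation calls ncRNA lay within 250 bp of 15.3% of dense-chain summits, 10.5% of those in chains of 2 and 7.73% of lone summits. For tRNA genes the shares were 2.11%, 1.78% and 1.73%, and for small nucleolar RNA genes 0.960%, 1.01% and 0.919%. For pseudogenes the order was the other way, 0.346%, 1.38% and 2.76%. Repeated sequence did not follow the chains, since 1.08% of dense-chain windows and 1.56% of lone windows had over 50% of their 32 bp words elsewhere in the genome.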

How the data were processed

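The authors deposited peak lists of 2 ZTF-11 ChIP-seq libraries, with coordinates on ce11 and ce10 per the labels. Per the deposited file listings, the relaxed lists came from each replicate, the pooled list from both, and the thresholded list (721 peaks, 698 nuclear) from their reproducibility. The sources used here give no aligner, caller, version or cutoff. The values used are the signal that the authors' caller gave each peak, on a scale that is not stated, relative to a control. Depth is unknown and no counting interval is given.

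Summits (start plus summit offset) of the ce11 pooled list were chained at gaps of at most 2000 bp, and chains of 3 or more summits were kept. Features came from Ensembl release 115 on WBcel235, whose chromosome lengths held every peak, with each summit counted once, in the order coding exon, 5′ UTR, 3′ UTR, intron, non-coding gene, intergenic. Mature miRNAs came from RefSeq for the same assembly, with 30 of the 31 miRNA genes in chains matched. Motifs were counted on both strands. A pooled peak was found in a replicate when it overlapped a peak of that replicate's relaxed list. A chain was met when it overlapped a dense chain of that replicate, both measured from first to last summit. Chains were named as the 10 first by summits, by summed signal, by length and by thresholded peaks, with their nearest or covered genes, and list members by their chains' sums. For each list up to 3 members were to be named, and further members were named after their values were seen. The members, lists and motifs were chosen with earlier results of these data known. No statistical test was run, since the design has 1 group of 2 libraries. Alternatives changed the gap, the smallest chain, the peak set, the replicate, the promoter window and the build. The ce10 replicate lists were not used. The chaining and feature steps were tested on simulated data. Python 3.11.15, numpy 2.4.6, pandas 2.3.3, scipy 1.17.1 and matplotlib 3.10.9 were used.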

Additional observations from a re-analysis of the deposited data

How the results depend on the processing

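Of 94 values recomputed under alternatives, 65 stayed within their limits, 24 moved and 5 changed sign. The limits were 1.5 times for counts, the 95% Wilson-based interval for shares and the spread between replicates for medians, and intervals cover counting error only. The number of dense chains was 236 with gaps of up to 1000 bp, 278 with 4 or more summits and 221 among peaks at or above the median signal, and 640 to 648 from 1 replicate alone. The difference in promoter windows between dense chains and lone peaks, −1.83 percentage points, was −0.997 with replicate 1's list alone, turned to 0.444 with replicate 2's list alone and to 1.54 with the wide window (2000 bp before the 5′ end, 500 bp after), and it moved to −5.03 with 4 or more summits and −10.9 among peaks at or above the median signal. The X chromosome share, 18.9% in dense chains and 18.3% in lone peaks, differed by 0.517 points, by −0.823 with gaps of up to 1000 bp, by −3.04 among peaks at or above the median signal, by −0.682 with replicate 1's list alone and by 0.102 with replicate 2's. The thresholded share (6.003 points higher in dense chains) was 7.71 points higher with gaps of up to 1000 bp, 4.62 with up to 3000 bp and 9.37 among peaks at or above the median signal. The difference in median signal, 1.81, was 2.60, 1.40, 2.37, 2.37 and 1.76 with gaps of up to 1000 or 3000 bp, with 4 or more summits, with peaks at or above the median and without windows of repeated sequence, and 0.783 to 0.835 from 1 replicate alone. The intron share (6.51 points higher in dense chains) was 10.5 points higher with 4 or more summits. The difference in median intron length, 828.5 bp, was 1236, 538, 1062 and 1753 bp with gaps of up to 1000 or 3000 bp, 4 or more summits and peaks at or above the median. Pooled chains were met by replicate 1 in 84.2% of cases and by replicate 2 in 78.3% when whole relaxed lists were chained, and in 85.2% and 72.0% when 50% of a chain's summits had to lie within 100 bp of a replicate summit. The causes of these shifts were not tested.

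The direction of the differences in thresholded share, coding exons, introns and intron length held under every alternative run on them, as did that of median signal. The alternatives on introns and miRNA genes were added after the data were seen. No paired analysis was possible because the design has 1 group. By its label the pooled list includes background, as do the relaxed lists. Depth is unknown, and single chains of 3 summits rest on low peaks that seldom recurred as chains in both libraries.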

Other observations

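Some genes were covered by more than 1 dense chain. The body of hmr-1, the classical cadherin gene, held 14 dense-chain summits in 4 chains with a summed signal of 261, of which none was thresholded. The GATA factor gene egl-18 held 12 in 3 chains (217 in sum, none thresholded), among them the chain given above for elt-6. A translational control gene that hosts mir-229, mir-64, mir-65 and mir-66, gcn-1, held 11 in 2 chains (200.4 in sum, 1 thresholded). In ppfr-1, a phosphatase subunit gene, 10 summits lay in 2 chains (269 in sum, 2 thresholded). All but 1 of the hmr-1 summits, and all those in egl-18, gcn-1 and ppfr-1, were intronic. The protocadherin-like gene fmi-1, a Flamingo homologue, held 9 in 2 chains (196 in sum), 6 of them intronic. These genes were chosen after their values were seen, from those with the most dense-chain summits.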
